A study of Mus musculus with 27 samples.

Results

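Uterine RNA of the F1 hybrid of C57BL/6 (B6) and C3H mice was compared with the mid-parent level, the average of its 2 parent strains, 24 h after estradiol (E2). The comparison took the 3 F1 arrays, the 3 B6 arrays and the 3 C3H arrays that the labels give as E2 24 h, 9 of the 27 arrays in the series, and no measured value was used to choose them. All animals were females bought at 8 weeks of age, and the hybrid was made in a single direction, B6 × C3H. They had been ovariectomised, rested, and given 17β-estradiol at 40.0 µg per kg body weight by intraperitoneal injection, in saline with ethanol. The vehicle groups of the same 3 strains received the saline and ethanol alone, and further groups were taken 2 h after E2. Each group drew on 3 animals. Which animal, or pool, gave which array is not stated, so the p-values measure the spread between these arrays, which may be technical. The arrays measured whole uterus, so that fewer cells of a type and less RNA per cell cannot be told apart.

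A hybrid carries a full chromosome set from each parent. Where each parental copy keeps the output it has in its own strain, the hybrid holds the arithmetic mean of the parental RNA amounts, which on a log scale lies above the midpoint and comes ever closer to the higher parent as the parents grow apart. Expression at the mean is called additive, expression at the level of a single parent dominant, and expression beyond both parents is outside the parental range. In the ovariectomised uterus, estradiol acts mainly through the estrogen receptor ESR1. An early wave of signalling and fluid-uptake genes is followed, after about a day, by DNA synthesis and division of the epithelium.

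Levels are log2 processed intensities relative to the 75th percentile of the same array, and 21861 genes were tested, each through its brightest probe. The 3 F1 arrays shared a slide that held no other group, so slide and strain cannot be told apart. The 10 spike-in RNAs added to every sample lay between -0.20 and 0.06 log2 from the mid-parent in F1 (median -0.09), while the median over all genes was -0.01. C3H replicate 1 stood apart: 482 genes lay over 1 log2 from their group mean in it, of which 445 were higher, against 97 to 202 genes in the other 8 arrays. Its genes of this kind were mostly dim, with a median level of -7.58 on the other C3H arrays, and counts are given with and without it where it matters. H2-Ea, a class II gene that B6 mice do not express, was not well above background on any B6 array (-9.24 to -8.57), lay at -5.52 to -5.20 in C3H and at -6.86 to -6.31 in F1. Nnt, a mitochondrial enzyme gene carrying a deletion in B6 substrains, lay at 1.03 to 1.31 in B6, 2.18 to 2.43 in C3H and 1.76 to 1.83 in F1, so that both genes ordered the strains as labelled. Esr1 (2.76 to 3.41 over the 9 arrays) and the smooth muscle, stroma and epithelium marker lists (mean levels of 2.34 to 4.39 over the 9 arrays) marked the tissue as uterus. Squamous epithelium markers varied widely within groups, from a mean of -1.23 to 0.12 in B6, -3.21 to -0.83 in C3H and -2.92 to -0.60 in F1.

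Most genes of the F1 uterus could not be told from the mid-parent level 24 h after estradiol, although the parents differed in many. By limma's moderated test with Benjamini-Hochberg adjustment over all genes (adjusted p under 0.05), C3H and B6 differed in 8444 genes, or 38.6%, of which 4873 were higher in B6 and 3571 in C3H. F1 was called different from B6 in 19.2% of genes (7.86% higher, 11.3% lower) and from C3H in 15% (7.9% higher, 7.1% lower). F1 was called above the log2 mid-parent in 333 genes (1.52%) and below it in 288 (1.32%), and with median centring in place of the 75th percentile in 364 and 176. Of the 8444 genes, 8043 (95.3%) were additive in the sense that F1 was not called off the mid-parent. For 1029 of these F1 was also called different from both parents, for 3639 from a single parent and for 3375 from neither. A gene not called off the mid-parent is not thereby shown to lie on it. A further 253 genes were dominant (F1 off the mid-parent, different from a single parent), and 133 were partly dominant (off the mid-parent and different from both, between them). F1 was called above both parents in 54 genes (0.247%) and below both in 123 (0.563%). With median centring these were 66 and 71. Without C3H replicate 1, 502 genes were called above and 221 below the mid-parent, of which 282 and 202 were also called with all arrays. Without F1 replicate 1, 2 or 3 the counts were 186, 195 and 191 above and 103, 100 and 131 below, and dominant genes numbered 111, 118 and 122. Partly dominant genes numbered 87 and 88 without F1 replicates 2 and 3.

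**Figure D1:**
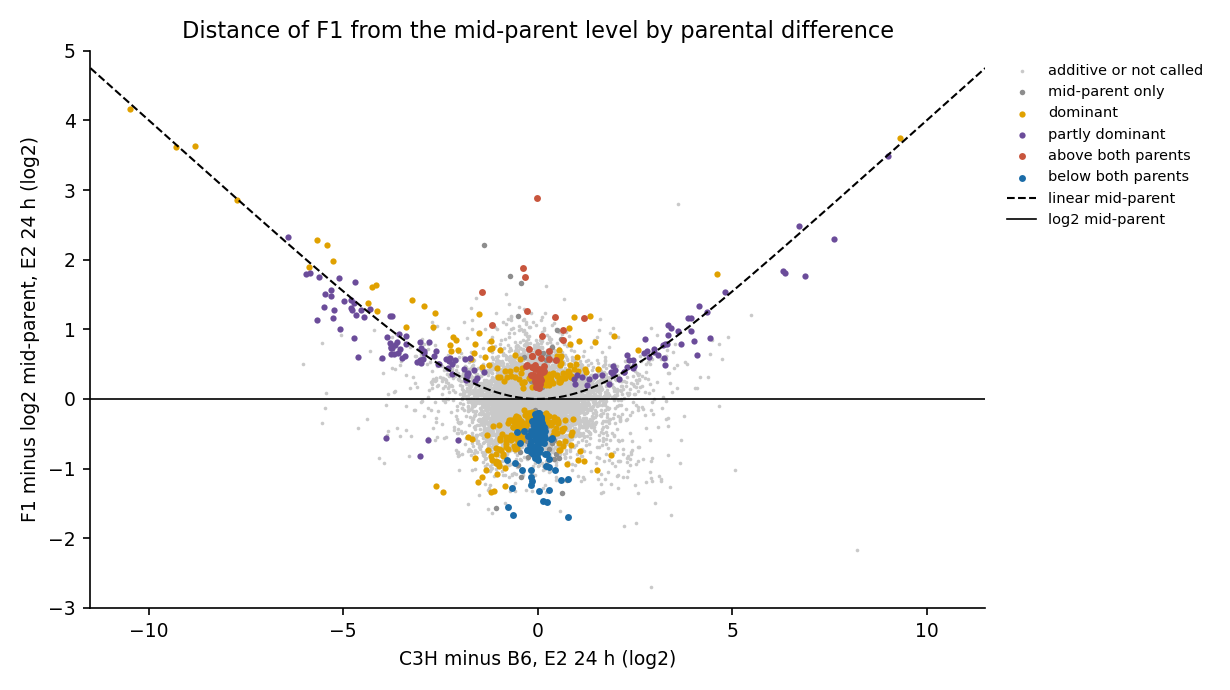
Each point is a gene, with the difference of the parents (C3H minus B6, log2) on the horizontal axis and F1 minus the log2 mid-parent on the vertical axis, coloured by class, 24 h after estradiol (means of 3 arrays per strain). The solid line is the log2 mid-parent and the dashed line the mid-parent of the linear intensities; genes far apart in the parents and called off the solid line, such as Thumpd1 and Ptprg, lie near the dashed line.

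The scale of the mid-parent decided most of the calls above it and fewer of those below it. Against the mean of the parental intensities on the linear scale, 111 genes were called above (0.508%) and 304 below (1.39%), 1.9% in all. The 2 scales shared 111 calls above and 257 below, and 1 gene was called on both with opposite signs. A further 221 genes above the log2 mid-parent were not called against the linear mid-parent. Another 46 genes below the linear mid-parent were not called against the log2 mid-parent. Among the 1755 genes whose parents differed by at least 1 log2, 177 were called above the log2 mid-parent and 31 below. The same 1755 genes gave 12 calls above the linear mid-parent and 68 below. Of the 133 partly dominant genes, 129 lay nearer the higher parent, and 30 genes were partly dominant on the linear scale, 28 of them nearer the lower parent. Dominant genes were 121 at the level of the higher parent and 132 at that of the lower parent on the log2 scale, and 49 above against 151 below the mid-parent on the linear scale.

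The position of F1 between its parents was then measured in 963 genes whose parents were called different by at least 1 log2 in vehicle and lay at least 1 log2 apart, in the same direction, 24 h after estradiol. F1 levels did not enter the 2 parental differences, although F1 arrays took part in the pooled error, the detection filter and the choice of probe. F1 lay between the parental means in 93.7% of them. With B6 at 0 and C3H at 1 the median position was 0.464 ± 0.00175 on the log2 scale (SD, n = 3 arrays), and with the lower parent at 0 and the higher at 1 it was 0.586 ± 0.0195. On the linear scale the second of these was 0.411 ± 0.0194, so that F1 was above the midpoint on the log2 scale and below it on the linear scale on each of the 3 arrays. The log2 position was higher at larger parental gaps, from 0.515 ± 0.0572 in 322 genes with a gap of 1 to 1.5 log2 to 0.676 ± 0.0201 in 93 genes with a gap of 3 to 4 and 0.752 ± 0.0141 in 57 genes with a gap of 4 to 6. The linear position stayed between 0.393 and 0.427 over the bins from 1 to 6 log2. In the 14 genes with a gap above 6 log2 the positions were 0.856 and 0.458, a bin too thin to lean on. Across all 963 genes the median F1 level was 56.3% of the higher parent, and in the 57 genes with a gap of 4 to 6 log2 it was 44.2%.

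**Figure D2:**
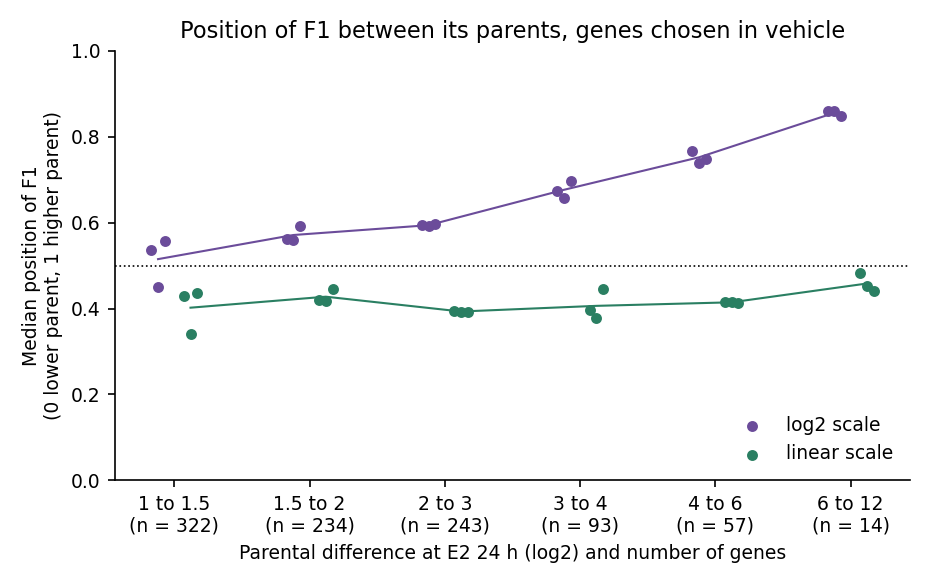
Median position of each F1 array between the parental means (vertical axis, 0 at the lower and 1 at the higher parent), for 963 genes chosen in vehicle and binned by the parental difference at E2 24 h (horizontal axis, log2), with lines through the mean of the 3 arrays. Positions on the log2 scale climb from 0.515 to 0.856, whereas those on the linear scale stay between 0.393 and 0.458.

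In 12 named genes detected above background on every array of a single parent and on none of the other, with the parents at least 5 log2 apart, F1 held a median of 45.7% of the expressing parent's level (range 8.52% to 63.3%). Of these 12, 8 were called above the log2 mid-parent and 2 were called off the linear mid-parent, both below it. In all 12 the log2 mid-parent rests on a dim value. Of the 333 genes called above the log2 mid-parent, 55 had a parent with no array above background.

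Thumpd1, which encodes an RNA-binding adaptor for tRNA acetylation, lay at 1.91, 2.00 and 1.94 on the B6 arrays, at 0.93, 0.72 and 0.96 in F1 and was not well above background on any C3H array (-8.67 to -8.45). F1 was at least 263-fold higher than C3H, at 47.2% of B6, 4.16 ± 0.45 (SE) above the log2 mid-parent (limma adjusted p = 1.25e-05) and -0.08 from the linear one (adjusted p = 0.953). The F1 and B6 arrays did not overlap, but F1 minus B6 was not called (adjusted p = 0.157), and the gene was classed as dominant by that test. Its second probe gave another picture: at -2.91 in B6, -2.92 in C3H and -3.25 in F1, it showed no parental gap. The used probe maps to chr7:115637748-115637807 and the second to chr7:115640635-115640694 (minus strand, mm7), and the files give neither as exon, intron or untranslated region.

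Ptprg, a receptor tyrosine phosphatase, behaved alike, with 0.85 to 0.94 in B6, -0.19 to -0.07 in F1 and no C3H array above background. F1 was at least 128-fold higher than C3H and held 48.7% of B6. Its second probe read -2.02 in B6, -2.34 in C3H and -2.26 in F1, so for both genes the parental difference was seen with a single probe. Trim12a, a TRIM-family gene, had 58.4% of the B6 level in F1 (1.07, 0.92 and 0.94 against 1.83, 1.67 and 1.76), and its second probe gave the same order, with B6 at -1.26, F1 at -1.77 and C3H at -4.58.

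Gbp2b, an interferon-inducible guanylate-binding protein, was read in C3H alone among the parents (0.11 to 0.31), and F1 lay at -0.44, -0.70 and -1.02, 53.0% of C3H and at least 75-fold above B6. Ifi44l, another interferon-induced gene, had 49.3% of C3H in F1, and Jhy, a gene for motile cilia of the brain lining, 54.8%. Jhy lay at -3.39, -3.49 and -3.17 in F1, at -2.71 to -2.36 in C3H and was not above background in B6. It was called different from both parents and 2.48 ± 0.13 above the log2 mid-parent (adjusted p = 1.94e-10), against 0.12 above the linear one (adjusted p = 0.721).

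In other genes with a large parental gap F1 held a smaller share of the higher parent. H2-Q8, a non-classical class I gene, lay at 0.96, 0.96 and 1.11 in B6, -4.91 to -3.85 in C3H and -0.84, -1.11 and -0.92 in F1, which is 25.7% of B6 and -0.99 from the linear mid-parent, not called (adjusted p = 0.175). Klra4 and Klra10, inhibitory or activating receptors of natural killer cells, held 16.2% and 13.7% of B6 in F1. Both lay near the log2 mid-parent, not called (0.09 ± 0.25 and -0.13 ± 0.29, adjusted p = 0.885 and 0.855) and below the linear one by the test (-1.66 and -1.90, adjusted p = 0.00755 and 0.00812). No C3H array was above background for either gene, so the log2 mid-parent rests on a dim value. Klra10 was above background on 2 F1 arrays. The T and NK cell marker list, which holds none of the Klra genes, had means of -3.44 to -3.29 in B6, -3.98 to -3.71 in C3H and -3.89 to -3.51 in F1, and its part in these levels was not tested. Klra genes are a family of near-identical copies, and a probe can read several of them. The other 2 Klra4 probes disagreed with the used one and with each other. The first read -5.78 in B6, -6.24 in F1 and -8.15 in C3H, 0.73 above the log2 mid-parent, and the second read -4.83, -7.51 and -8.44, -0.88 from it, with C3H not above background on either and F1 on no array of the second. Tpsab1, a mast cell tryptase, lay at -8.24 to -6.64 in B6, -3.13 to -2.62 in C3H and -4.50 to -4.31 in F1, and Hal, the histidine-degrading ammonia-lyase, at -6.08 to -5.44, -2.11 to -1.94 and -3.80 to -3.02. Neither was called off the mid-parent on either scale, and in both genes the 3 strains did not overlap.

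**Figure D3:**
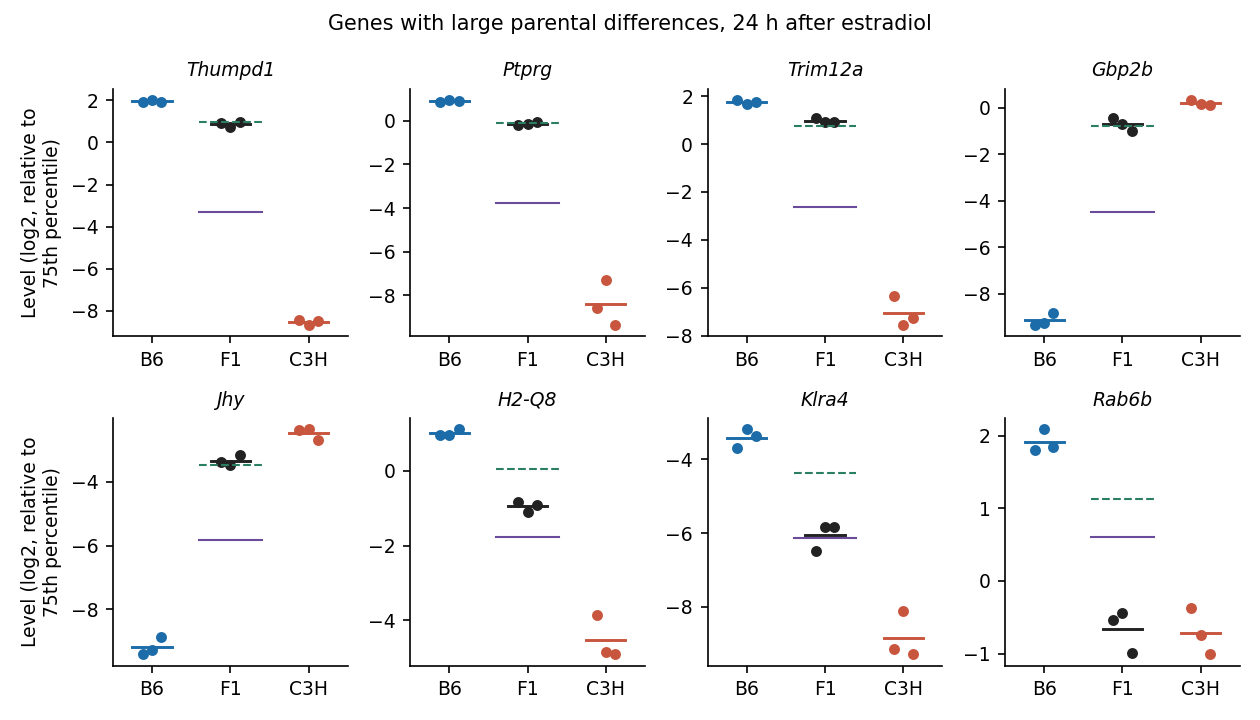
Level of each array (points, log2 relative to the array's 75th percentile) and group mean (thick bar) in B6, F1 and C3H for 8 genes with large parental differences, with the log2 mid-parent (solid thin line) and the linear mid-parent (dashed line) drawn at F1. F1 lies at the dashed line in Thumpd1, Ptprg, Gbp2b and Jhy, between the lines in H2-Q8, at the solid line in Klra4 and at the level of C3H in Rab6b.

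Named genes in which F1 matched the lower parent were called below the log2 mid-parent by the definition of the class. They were called below the linear mid-parent too, which is never the lower of the 2. Rab6b, a small GTPase of Golgi transport, lay at 1.80 to 2.08 in B6, at -1.01 to -0.38 in C3H and at -0.54, -0.45 and -0.99 in F1. F1 was 5.92-fold below B6 and overlapped C3H, -1.26 ± 0.25 from the log2 mid-parent (adjusted p = 0.0082) and -1.78 from the linear one (adjusted p = 0.00226). The second Rab6b probe ordered the strains alike, with -0.86 in B6, -3.77 in C3H and -3.44 in F1. Pdzk1ip1, a membrane protein of epithelia, lay at 1.74 to 2.00 in B6, -0.08 to 0.27 in C3H and 0.35 to 0.47 in F1, just above the C3H arrays.

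Apod, a lipid-binding secreted protein, was low in both B6 (-5.24 to -5.01) and F1 (-5.36 to -4.69) and higher in C3H (-3.38 to -3.09). F1 held 29.8% of the C3H level and was -0.81 ± 0.12 from the log2 mid-parent (adjusted p = 0.000603). 2210409E12Rik, like Apod, matched B6: F1 at -3.28 to -2.96, B6 at -3.18 to -2.75 and C3H at -1.99 to -1.83, and its 3 probes all put F1 below the log2 mid-parent. Rab6b was called below the mid-parent in vehicle (-1.67) and 2 h after E2 (-1.22) as well, whereas Apod was called there at 2 h alone (-0.48) and Pdzk1ip1 and 2210409E12Rik in neither. Mylk3 and 1700030C10Rik, the other genes named for matching a lower parent, were not above background on any F1 array.

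Above both parents, the named genes include a metabolic kinase and genes of the matrix. The median distance of F1 to the nearer parent was 0.34 log2 over the 54 genes, and in 46 of them all 3 F1 arrays lay above all 6 parent arrays, which was so for 1.6% of all genes tested. The median F1 level of the group was -0.71, above the median of all genes in F1 (-1.34). In 2 of the 54 genes no F1 array was above background, and in 4 a parent had no array above it. Without C3H replicate 1, C3H replicate 3 or B6 replicate 1 the group numbered 84, 34 and 32 genes.

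Pdk4, the kinase that shuts down pyruvate oxidation, lay at -0.30, -0.55 and -0.57 in F1, -1.28 to -0.90 in C3H and -1.95 to -1.68 in B6, 0.99 ± 0.11 above the mid-parent (adjusted p = 1.25e-05). F1 minus C3H, the nearer parent, was 0.66 (limma adjusted p = 0.00099). No F1 array overlapped a parent array, which the rule for naming genes required. The call above the mid-parent held under each of the 20 alternatives that gave a value. Calls against the single parents were not followed by gene there.

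Ankrd1, a stretch-responsive nuclear cofactor, lay at -4.33, -4.40 and -3.87 in F1, -5.25 to -4.58 in B6 and -6.82 to -6.19 in C3H, 1.54 ± 0.23 above the mid-parent (adjusted p = 0.000449). F1 minus B6, the nearer parent, was 0.82 (limma adjusted p = 0.0325). Has1, a hyaluronan synthase, was higher in F1 on all 3 arrays, but these spread over -0.76, -2.28 and -3.29, against -4.09 to -3.46 in the 6 parent arrays. The difference from the mid-parent was 1.75 ± 0.34 (adjusted p = 0.00741) with the error pooled over all 27 arrays. With the 9 arrays alone it was not called (adjusted p = 0.147). Its second probe was not above background on any of the 9 arrays. Thbs1, an adhesive matrix glycoprotein, was 0.61 ± 0.11 above the mid-parent (adjusted p = 0.00328), with F1 at -0.75, -1.21 and -0.83 and the parents at -1.74 to -1.26.

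Replicate 1 of F1 stood far above the other F1 arrays in some genes. Without F1 replicates 1, 2 and 3 the group above both parents numbered 42, 40 and 44 genes. Gfpt2, an enzyme of hexosamine synthesis, lay at -1.57 on it and at -2.80 and -2.86 on the other F1 arrays, against means of -3.09 in B6 and -3.07 in C3H. Without that array its difference from the mid-parent went from 0.67 (adjusted p = 0.0468) to 0.25 (adjusted p = 0.184). The cytokine genes Cxcl1 and Il6, called above the mid-parent but not above B6, showed the same array high, with Cxcl1 at -1.26, -3.32 and -4.79 and Il6 at -3.76, -6.74 and -7.12. Il6 was above background on 1 F1 array and on no parent array. Without replicate 1, the Cxcl1 difference from the mid-parent went from 2.21 (adjusted p = 0.0276) to 1.28 (adjusted p = 0.194) and that of Il6 from 1.76 (adjusted p = 0.0477) to 0.70 (adjusted p = 0.239). The mean of the chemokine and cytokine list was -1.41 on that array and -2.07 and -1.96 on the other F1 arrays.

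The remaining named genes above both parents differed by probe. Vsig2, an immunoglobulin-domain membrane protein, lay at -2.16 to -1.71 in F1 and -3.02 to -2.37 in the parents, 0.71 above the mid-parent, but its second probe lay -0.24 from it. Xpo4, a nuclear transport receptor, was 0.62 above by the used probe and -0.05 by the second, and Ccdc151, a gene of ciliary dynein arms, 0.69 and -0.91, the latter from a probe above background on a single array of the 9. Over all outside-above genes with another measurable probe (16 genes, 22 probes), 14 of the 22 other probes put F1 beyond both parents in the same direction. Over all genes, 3523 of 11040 other probes did so. Igkv8-16 and Rnd1 had a larger distance to the nearer parent (2.87 and 1.69 log2) but overlapped a parent array, so the rule for naming genes left them out, and they are named here after their values were seen.

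**Figure D4:**
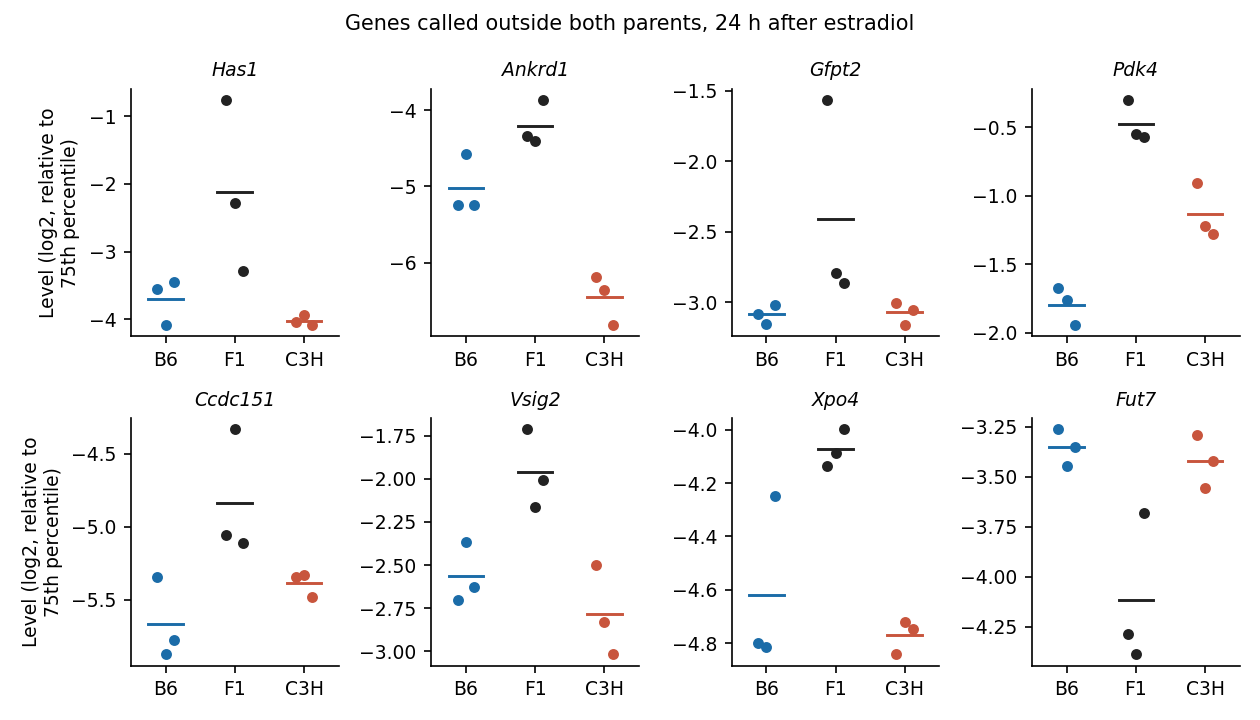
Level of each array (points, log2 relative to the array's 75th percentile) and group mean (bar) in B6, F1 and C3H, for 8 genes called outside both parents 24 h after estradiol. F1 lies above all parent arrays in 7 genes and below them in Fut7, which the rule for naming these genes required. Replicate 1 (leftmost point) lies far above the other F1 arrays in Has1 and Gfpt2.

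The promoter windows of Has1, Ankrd1 and Pdk4 are shown, which ranked 1, 2 and 4 by distance among the named genes above both parents. Gfpt2, which ranked 3, is not shown. The windows of 300 bases end just past the start site and come from RefSeq (GRCm38.p6), 5′ to 3′ on the gene's strand, and the C3H copies were not used here. Capitals mark GGTCA or its reverse complement TGACC, searched on both strands, the core of elements bound by estrogen receptors and other nuclear receptors.
Has1, chr17:17855139-17855438: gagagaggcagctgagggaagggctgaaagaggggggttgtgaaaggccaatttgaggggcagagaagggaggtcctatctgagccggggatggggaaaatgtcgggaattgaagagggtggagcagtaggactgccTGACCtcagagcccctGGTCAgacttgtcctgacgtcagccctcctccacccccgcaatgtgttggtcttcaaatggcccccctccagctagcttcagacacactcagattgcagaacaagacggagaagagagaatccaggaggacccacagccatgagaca
Ankrd1, chr19:36119795-36120094: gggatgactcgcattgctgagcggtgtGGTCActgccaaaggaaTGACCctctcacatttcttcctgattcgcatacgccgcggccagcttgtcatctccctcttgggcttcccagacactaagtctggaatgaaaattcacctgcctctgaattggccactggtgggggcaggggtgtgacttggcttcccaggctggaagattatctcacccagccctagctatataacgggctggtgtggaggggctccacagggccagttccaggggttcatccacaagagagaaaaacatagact
Pdk4, chr6:5496229-5496528: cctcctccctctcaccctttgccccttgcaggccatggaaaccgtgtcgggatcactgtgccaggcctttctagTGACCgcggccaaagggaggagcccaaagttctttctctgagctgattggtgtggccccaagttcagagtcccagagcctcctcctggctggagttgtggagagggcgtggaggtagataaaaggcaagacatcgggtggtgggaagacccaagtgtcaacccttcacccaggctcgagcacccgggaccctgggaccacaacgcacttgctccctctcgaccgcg
The letters occurred 2 times in Has1, 2 times in Ankrd1 and 1 time in Pdk4, and at least once in 40.5% of the 32851 promoter windows of this length. A match is a description of the letters, not a bound site.

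Below both parents, the genes were mostly dim. The median F1 level of the 123 genes was -4.01, and 21 of them were not above background on any F1 array. The group numbered 77 and 78 genes without C3H replicates 1 and 3, and 64 and 75 without F1 replicates 1 and 2. In 116 of them all 3 F1 arrays lay below all 6 parent arrays, which was so for 3.12% of all genes tested. Other probes of these genes (34 genes, 47 probes) had the same sign in 30 cases (63.8%), against 60.5% for all genes, with a median of -0.08 against -0.32 on the used probes. Of the 8 named by distance, Fut7 alone was above background on all 9 arrays. Fut7, a fucosyltransferase that makes selectin ligands on leukocytes, lay at -4.29, -4.39 and -3.68 in F1 and at -3.56 to -3.26 in the parents, -0.73 ± 0.19 from the mid-parent (adjusted p = 0.0422). The call was lost on the linear mid-parent (adjusted p = 0.0518) and in 14 of 20 alternatives in all.

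For 5 of the other 7, no F1 array was above background while a parent was at least in part, or F1 reached background on 1 array. Olfr5, an olfactory receptor gene, gave at least 1.86-fold and 1.18-fold higher levels in B6 and C3H than in F1, Pcdh20, a protocadherin, at least 1.23-fold in C3H, and Brinp1, a nervous system protein, at least 1.47-fold in C3H. Gpr6, an orphan receptor, was at least 1.15-fold higher in B6, where 2 of 3 arrays were above background, and Tmem71, a membrane protein, was above background on 1 F1 array and on all parent arrays. Cyp2d13 and Kcnip2 were not above background on any of the 9 arrays, and no fold is given. With normexp background correction, the differences of Gpr6, Tmem71 and Olfr5 from the mid-parent went from -1.67, -1.18 and -1.28 to -0.18, -0.24 and -0.18, and none was called.

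The same measure was taken in the vehicle and E2 2 h groups, whose means share no array with the E2 24 h means. The calls do share the pooled error, the detection filter and the choice of probe, so they are not independent of each other. Of the 333 genes above the log2 mid-parent, 293 (88.0%) had the same sign in vehicle, where 59.6% of all genes did, and 132 (39.6%) were called so, against 1.45% of all genes called above in vehicle (5.37% in either direction). Of the 288 below it, 233 (80.9%) had the same sign in vehicle and 70 (24.3%) were called, against 3.92% of all genes called below. Of the 133 partly dominant genes, 100 (75.2%) were called with the same sign in vehicle and 88 (66.2%) at 2 h. At 2 h, 3.29% of all genes were called above and 8.34% below.

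Calls outside both parents were then compared across conditions. None of the 54 genes above both parents at 24 h was called above both in vehicle, and 3 were at 2 h, against 0.0915% and 0.471% of all genes. Of the 123 below, 5 were called below both parents in vehicle and 22 at 2 h, against 1.5% and 2.94% of all genes. On the mid-parent measure, 3 of the 54 (5.56%) and 16 of the 123 (13.0%) were called with the same sign in vehicle, and 7 (13.0%) and 46 (37.4%) at 2 h. The signs of the mid-parent difference recurred in 47 of 54 (87.0%) and 106 of 123 (86.2%) genes in vehicle, with medians of 0.10 and -0.10 there against 0.40 and -0.50 at 24 h. Pdk4 lay 0.18 and Has1 -0.10 from the mid-parent in vehicle, neither called.

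Few genes passed the test of the difference itself. F1 minus the log2 mid-parent differed between E2 24 h and vehicle in 11 genes (0.0503%) by limma's test, 8 with the higher value after E2 (0.0366%) and 3 with the lower (0.0137%). At an unadjusted p under 0.05 there were 2612. Hbegf, a growth factor ligand of the EGF receptor, lay at 1.78, 1.77 and 1.64 in F1, 2.52 to 2.56 in C3H and -0.35 to -0.26 in B6 at 24 h. It was 0.61 ± 0.07 above the log2 mid-parent at 24 h and 1.29 above it in vehicle, a difference of -0.68 (adjusted p = 0.0069), and on the linear mid-parent at 24 h (adjusted p = 0.99). Tmod4, a thin-filament capping protein of muscle, went the same way (0.58 at 24 h against 1.27 in vehicle, difference -0.69, adjusted p = 0.0465), with skeletal muscle markers at means of -3.02 to -2.63 over the 9 arrays, whose part was not tested. Jhy went the other way, at 2.48 against 0.81 in vehicle (difference 1.68, adjusted p = 0.000221), but its B6 level was not above background, so the log2 mid-parent rests on a dim value. C3H minus B6 was 4.04 in vehicle and 2.85 at 24 h for Hbegf, 3.26 and 6.70 for Jhy, and 3.37 and 3.23 for Tmod4. The part of these parental gaps in the differences was not tested. Without C3H replicate 1, 560 genes were called in this test, 522 of them higher after E2, and they included all 11. Without C3H replicate 2 or 3 there were 4 and 7, and without B6 replicate 2 there were 5. Without vehicle arrays C3H replicate 2, C3H replicate 3, F1 replicate 2 or F1 replicate 3 there were 6, 4, 6 and 5.

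Gene lists for the estrogen response and for cell types were near all genes in their shares of calls off the midpoint. Parental differences were more frequent in some process lists, such as DNA replication. Of 467 measured genes in 18 lists of processes, counted once each, 217 (46.5%) differed between the parents, against 38.6% of all genes, and 215 of these were additive. In all, 8 (1.71%) were called off the log2 mid-parent, against 2.84% of all genes, 5 above and 3 below. All 26 DNA replication genes that differed between the parents (of 30 measured) were higher in B6, as were 22.3% of all genes, all 26 were additive, and none of the 30 was called off the mid-parent. Mean levels of the list were 1.92 ± 0.07 in B6, 1.77 ± 0.06 in F1 and 1.44 ± 0.04 in C3H (SD, n = 3 arrays), with no overlap between strains. Ribosome biogenesis genes were alike, with 19 of 25 higher in B6, none called off the mid-parent, and means of 2.23 ± 0.05, 2.03 ± 0.03 and 1.82 ± 0.03 in B6, F1 and C3H.

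Of 24 cholesterol synthesis genes, 17 were higher in B6 and 2 in C3H, and F1 was called off the mid-parent for Lss alone, the lanosterol synthase gene. Lss lay at 0.01, 0.03 and 0.28 in F1, 0.44 to 0.79 in B6 and 0.18 to 0.44 in C3H, -0.38 ± 0.09 from the mid-parent (adjusted p = 0.0334), and overlapped C3H. Of 30 mitosis genes 9 were higher in B6, a share nearer to the 22.3% of all genes, and none was called off the mid-parent (median 0.09). Late estrogen-response and secretory genes, which include Ltf for lactoferrin, had no call among 24 and a median of 0.10. Their mean level was 2.32 ± 0.04 in F1 against 2.11 ± 0.18 in B6 and 2.13 ± 0.08 in C3H, and the F1 arrays (2.28 to 2.36) overlapped those of B6 (1.93 to 2.29).

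**Figure D5:**
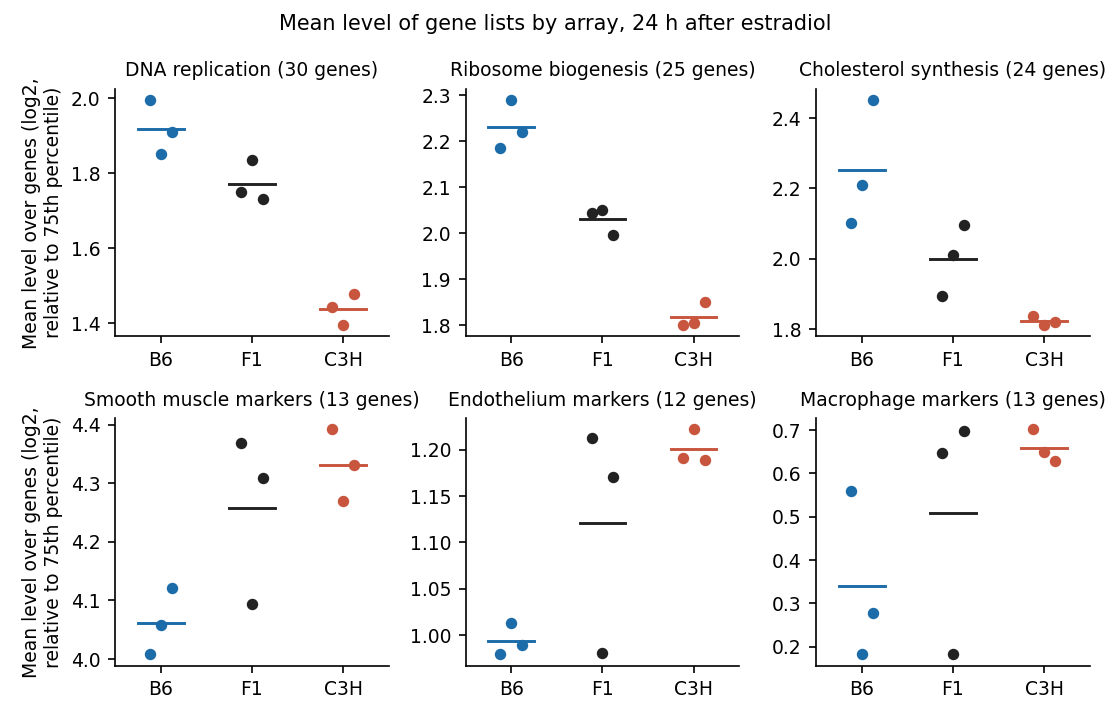
Mean level over the genes of 6 lists (vertical axis, log2 relative to the array's 75th percentile) on each array (points) with the group mean (bar) in B6, F1 and C3H, 24 h after estradiol. The F1 arrays lie between the parents without overlap for DNA replication and ribosome biogenesis, and F1 replicate 2 (middle point) lies with B6 in the smooth muscle, endothelium and macrophage marker lists.

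The other calls within lists were single genes. Xbp1, a transcription factor of the secretory pathway, lay at 2.18, 2.41 and 2.27 in F1 and 1.79 to 2.06 in the parents, 0.34 ± 0.07 above the mid-parent (adjusted p = 0.0194). Nr3c2, the mineralocorticoid receptor gene, lay at -5.04, -5.36 and -5.05 in F1, -4.37 to -3.73 in B6 and -5.32 to -4.35 in C3H, and was -0.65 ± 0.15 from the mid-parent (adjusted p = 0.025). It lay below the mid-parent in vehicle (-0.53, adjusted p = 0.045) and at 2 h (-0.59, adjusted p = 0.017) too. Col6a3, a microfibril collagen gene, was -0.32 from the mid-parent (adjusted p = 0.0474), a call lost on the linear scale (adjusted p = 0.0546) and in 17 of 20 alternatives in all. The Lss call was lost in 10 of 20. No gene of the interferon, histocompatibility, WNT, ion transport, kallikrein, clock, immediate early, xenobiotic or respiratory chain lists was called, and their medians lay between -0.12 and 0.17.

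Of 166 marker genes counted once, 69 (41.6%) differed between the parents and 4 were called off the mid-parent (2.41%, against 2.84% of all genes): Xbp1, Emcn, Sox10 and Stmn2. Emcn, an endothelial sialomucin, lay -0.22 ± 0.06 from the mid-parent (adjusted p = 0.045), a call lost on the linear scale (adjusted p = 0.0547) and in 13 of 20 alternatives in all. Sox10, a glial transcription factor, lay -0.44 ± 0.10 (adjusted p = 0.0175), while Stmn2, a neuronal tubulin regulator, was 0.34 ± 0.08 above it (adjusted p = 0.0226). In 5 of 13 smooth muscle, 6 of 12 endothelium and 4 of 13 macrophage genes C3H was higher, and B6 in none, while 6 of 14 epithelium genes were higher in B6 and none in C3H. Differences ran to B6 alone in squamous epithelium (6 of 9), liver (6 of 10) and mesothelium (1 of 8) genes. They ran to C3H alone in neutrophil and eosinophil (4 of 9), B and plasma cell (2 of 9) and erythroid (2 of 5) genes. No adipocyte gene differed. The remaining lists held both directions, such as stroma with 6 of 13 higher in C3H and 2 in B6. T and NK cell had 1 and 4 of 13, and skeletal muscle 3 and 3 of 10. Over all genes, 16.3% were higher in C3H and 22.3% in B6. F1 replicate 2 lay within or beside the B6 range in smooth muscle (4.09), endothelium (0.98) and macrophage (0.18) means, while the other 2 F1 arrays lay near C3H (4.31 to 4.37, 1.17 to 1.21 and 0.65 to 0.70). The part of such differences in cell makeup in the gene results was not tested.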

How the data were processed

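RNA was measured on Agilent whole mouse genome slides, 4 arrays each, in 1 colour. The authors deposited scanner files of spot intensity on a linear scale, which Feature Extraction 9.5.3.1 had background-subtracted, per the file headers (9.5 in the submitters' processing notes) and not scaled between arrays, and the deposited value table held the same intensity in all 27 columns. Spot coordinates are mm7, per the file headers. From these, control spots and outlier flags were left out, log2 intensity minus each array's 75th percentile (intensities of 1223 to 1477 at E2 24 h) was taken, probes that the scanner software marked well above background throughout 1 group or more were kept (32901 of 41174), and the brightest probe stood for its gene. Probes were named through accessions in the RefSeq gene table (23075), file symbols (6587) or synonyms (3072), and 8440 kept the file's own name.

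All 27 arrays entered 1 limma 3.58.1 model of 9 group means (R 4.3.3), with 18 residual and 1.95 prior degrees of freedom. Contrasts were F1 minus the mean of the parental means, F1 minus each parent, C3H minus B6 and the difference between E2 24 h and vehicle, each adjusted by Benjamini-Hochberg, and calls used an adjusted p under 0.05. The linear mid-parent used the delta method with the same variance. Errors of contrasts are standard errors. The scripts were tested on simulated data. "At least" folds set the brighter group against a floor: on each dim array, the lowest signal still well above background, or the probe's own signal where that is higher. The number of arrays limits the precision.

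Genes were named by rule: the 8 outside each side of the parents by distance to the nearer parent without overlap of arrays, 3 dominant genes of each kind and 4 additive genes in each direction by parental difference, 4 for the E2 minus vehicle difference in each direction, and up to 4 called members of each list. Genes without a symbol were not named. A gene that this rule also named is not reported here. The members and lists were chosen with earlier results of these data known. Alternatives were other scalings, background corrections, filters, probe rules, array sets, blocks and thresholds, and leaving out each array.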

Additional observations from a re-analysis of the deposited data

Results flagged for a closer look

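F1 minus the log2 mid-parent differed between E2 24 h and vehicle in 11 genes by the limma test of that difference, and 6 of them were named. Of these 6, Tmod4 (-0.69) and Hbegf (-0.68) lay closer to the log2 mid-parent after estradiol, and both were above background on all 9 arrays at 24 h. Jhy (1.68) lay farther above it, with B6 not above background. The parental gap differed between vehicle and 24 h as well, at 4.04 and 2.85 for Hbegf and 3.26 and 6.70 for Jhy, but little for Tmod4 (3.37 and 3.23). Its part in these values was not tested. Ces1g (2.65, a carboxylesterase), Cyp2c39 (2.35, a cytochrome P450) and Car5a (1.48, a mitochondrial carbonic anhydrase) were called below the mid-parent in vehicle (adjusted p = 0.00845, 0.000617 and 0.00248). At 24 h, Cyp2c39 was not above background on any of the 9 arrays, Ces1g was above it on 2 F1 arrays and no parent array, and Car5a was above it on 1 B6, 2 C3H and 2 F1 arrays. All 3 are genes of liver as well, and the liver marker means at 24 h were -3.84 to -2.98 in B6, -4.82 to -4.13 in C3H and -4.70 to -3.95 in F1; their part in these values was not tested.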

How the results depend on the processing

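Genes above the log2 mid-parent (333) numbered 209 with normexp background, 184 unscaled, 130 with the 9 arrays alone, 134 at adjusted p under 0.01, 158 with a minimum of 0.58 log2, 111 on the linear scale and 186 to 502 with an array left out. Genes below it (288) numbered 135, 109, 95, 40 and 108 under the first 5 of these, 176 with median centring, 188 without the filter on dim probes and 100 to 268 with an array left out. In the order normexp, unscaled, 9 arrays, 0.01 and 0.58 log2, dominant genes (253) numbered 132, 113, 62, 60 and 95 (111 to 317 with an array left out). Partly dominant genes (133) numbered 85, 75, 83 and 30 with normexp, 0.01, 0.58 log2 and the linear scale (87 to 138). Genes above both parents (54) numbered 18, 13, 8 and 10 unscaled, with 9 arrays, at 0.01 and at 0.58 log2 (32 to 84). Genes below both (123) numbered 63, 71, 45, 8 and 39 with normexp, median centring, unscaled, at 0.01 and at 0.58 log2 (64 to 103). With 0.58 log2, additive genes (8043) numbered 3490 and parental calls (8444) 3672. F1 minus B6 (4195) gave 2712 unscaled, 2165 at 0.01 and 1584 at 0.58 log2, and F1 minus C3H (3279) gave 1963, 1572 and 1264. The difference from vehicle (11) gave 5 with normexp, 19 with quantile normalization, 4 without the filter, 3 with detection on all 18 arrays, 7 with those 18 arrays alone and 4 to 560 with an array left out. The position of 0.464 was 0.459 with median centring, 0.466 with detection on all 9 arrays, 0.389 with parents at least 2 log2 apart, 0.495 on the linear scale and 0.456 to 0.472 with an array left out.

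With detection on all 9 arrays, the second probes of Thumpd1 and Ptprg replaced the first, and the differences from the mid-parent became -0.33 and -0.077. On the linear scale those of Thumpd1, Ptprg, Tmod4 and Hbegf were -0.085, -0.039, -0.18 and -0.0029. A replicate block gave 352 genes above, 259 below, 63 above both parents, 118 below both and 6 for the difference from vehicle. Correlations of deviations ran from -0.10 to 0.116 between arrays of the same replicate number and from -0.17 to 0.118 between arrays of different numbers. Whether replicate numbers pair the arrays was not tested. Normexp on all spots could not be used on 6 arrays, and the version given, chosen after seeing the data, left out up to 57 spots an array with local background over 2 times the median. Causes of these changes were not tested, beyond the swapped probes.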
